A study of Homo sapiens with 6 samples.

Results

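The genes described here are the small nucleolar RNAs (snoRNAs) and small Cajal body RNAs (scaRNAs) that could be read in poly(A)-selected libraries of the human colorectal carcinoma line HCT116. Members were chosen by their annotated symbol, beginning with SNORA, SNORD or SCARNA, and by their measured values, an FPKM above 0 in at least 3 of the 6 libraries. FPKM divides the fragments of a gene by its transcript length and by the library's mapped total, so that levels of different genes are compared per length. Of 553 annotated genes with these symbols, among 60612 genes in the files, 232 were members. The study asked what overexpression of SNORA28 changes in these cells. The 3 LV-NC libraries came from cells infected with a negative control lentivirus, and the 3 LV-SNORA28 libraries from cells infected with a lentivirus in the GV235 vector that expresses SNORA28. Both groups were HCT116. For sequencing, the study describes infection followed by collection and names no selection. It selected its stably overexpressing cells with puromycin, and whether the sequenced cells were selected is not stated.

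H/ACA box snoRNAs (symbols SNORA) guide the conversion of uridine to pseudouridine in ribosomal RNA, and C/D box snoRNAs (symbols SNORD) guide 2'-O-methylation of ribose. ScaRNAs (symbols SCARNA) guide the same modifications in the spliceosomal small nuclear RNAs, in the Cajal body. In human cells most of them are cut from introns of host genes, many of which encode ribosomal proteins or are noncoding SNHG genes that are known mainly for holding snoRNAs. The mature RNAs carry no poly(A) tail, so oligo(dT) selection recovers them poorly, and the values below are not cellular levels of the mature RNAs. Reads from a mature snoRNA, from its precursor and from a host transcript that keeps the intron cannot be told apart in these values.

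The sequences of the 4 members that passed the test below are shown first, then 3 C/D box members that illustrate how levels varied between libraries. They are the annotated GENCODE transcripts on GRCh38, 5' to 3'. Capitals mark the box motifs found by a search of the RNA strand only. For H/ACA genes these were the ACA within the last 6 bases and the H box ANANNA nearest the middle, within the central part of the RNA. For C/D genes these were the C box core TGATG within the first 20 bases and the last D box CTGA within the final 15. SNORA28 lies at chr14:103337849-103337974 on the plus strand, in an intron of EIF5. The SNORA70 gene shown (ENSG00000251893) lies at chr12:75689152-75689304 on the minus strand, SCARNA12 at chr12:6967337-6967606 on the minus strand in PHB2, and SNORD4B at chr17:28723682-28723753 on the plus strand in RPL23A. SNORD58B (chr18:49491664-49491729) and SNORD58A (chr18:49491283-49491347) lie on the minus strand in RPL17, and SNORD26 (chr11:62855292-62855366) lies on the minus strand in SNHG1.
SNORA28: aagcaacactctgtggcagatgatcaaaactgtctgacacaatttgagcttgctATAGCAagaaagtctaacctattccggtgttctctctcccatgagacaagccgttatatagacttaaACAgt
SNORA70: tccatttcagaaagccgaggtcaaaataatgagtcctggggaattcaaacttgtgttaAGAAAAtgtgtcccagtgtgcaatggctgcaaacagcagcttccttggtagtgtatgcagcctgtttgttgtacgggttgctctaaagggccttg
SCARNA12: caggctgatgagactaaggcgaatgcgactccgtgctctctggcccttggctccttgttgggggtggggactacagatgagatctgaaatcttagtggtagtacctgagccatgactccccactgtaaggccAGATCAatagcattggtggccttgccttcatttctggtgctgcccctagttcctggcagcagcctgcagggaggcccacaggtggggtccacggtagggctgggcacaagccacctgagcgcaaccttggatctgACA
SNORD4B: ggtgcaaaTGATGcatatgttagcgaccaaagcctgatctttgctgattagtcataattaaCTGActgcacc
SNORD58B: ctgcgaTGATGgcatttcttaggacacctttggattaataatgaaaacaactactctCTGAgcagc
SNORD58A: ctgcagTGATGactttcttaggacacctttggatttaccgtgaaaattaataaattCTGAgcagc
SNORD26: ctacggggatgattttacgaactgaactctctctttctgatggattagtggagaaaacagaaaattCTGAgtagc

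Both H/ACA boxes were found in 84 of 101 SNORA members (83.2%) and in 160 of all 214 annotated SNORA genes (74.8%). Both C/D boxes were found in 89 of 118 SNORD members (75.4%) and in 230 of all 314 annotated SNORD genes (73.2%). SNORA28 and SCARNA12 had both an H box and a terminal ACA. The SNORA70 gene on chromosome 12 had an H box match but no ACA in its last 6 bases. ANANNA leaves some of its bases open, so a match alone does not identify an H box, and chance matches were not counted. This SNORA70 gene is 1 of 27 genes with that symbol in the files and shared between 44.4% and 66.1% of aligned positions with the other 26. SNORD58A and SNORD58B, neighbours in RPL17, were identical at 52 of 66 aligned positions (78.8%), and both had the C box core and the D box. In SNORD26 the D box was found and the C box core was not.

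Members were 101 of 214 SNORA genes (47.2%), 118 of 314 SNORD genes (37.6%) and 13 of 25 SCARNA genes (52.0%). Of the annotated genes, 178 were above 0 in all 6 libraries and 271 were at 0 in every library. The SNORD115 and SNORD116 copies, which form imprinted clusters, held no member, with all 48 and all 30 genes listed at 0 in every library. The 7 genes above 0 in exactly 3 libraries reached at most 0.93 FPKM, and the 18 genes above 0 in exactly 2 libraries, just outside the rule, reached at most 0.82 FPKM. Of those 7, SCARNA4 was above 0 in LV-SNORA28 only, at 0.17, 0.04 and 0.03 FPKM, and the other 6 had values above 0 in both groups. Between 212 and 220 members were above 0 in a single library, and together the members took 0.12% to 0.174% of a library's FPKM sum.

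Members were short, with a median annotated length of 128 nt (64 to 791 nt). A host gene on the same strand was found for 218 members in 132 host genes. Ribosomal protein genes held 47 members, noncoding genes 56 and other protein-coding genes 115, and 14 members had no host. Of the 218, 6 touched an exon of the host's canonical transcript, but 128 touched an exon of at least 1 annotated host transcript, such as a transcript that keeps the intron. Most members were low. The median of their mean levels was 0.46 FPKM, against 0.80 FPKM for all 25534 genes above 0 in at least 3 libraries. Only 85 members averaged 1 FPKM or more across libraries, the level required for the test, and 10 reached 10 FPKM.

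The epithelial markers EPCAM, KRT8, KRT18, KRT19, CDH1 and CDX2 were present in all 6 libraries, at 3.47 FPKM or more, and the intestinal gene VIL1 was at most 0.04 FPKM. The leukocyte, endothelial and other listed markers were at most 0.22 FPKM, other than COL1A1 at 3.16 to 4.46 FPKM. Mitochondrial genes made up 42.7% to 47.7% of all FPKM in LV-NC libraries and 35.9% to 38.3% in LV-SNORA28. This difference changes every other gene's FPKM. With each library scaled to its FPKM sum outside the mitochondrial genome, the count of members that passed the test was 4, as in the main fit. Of all genes 879 passed with that scaling, against 1076 in the main fit. Beyond this refit, the part of the mitochondrial difference in the results was not tested. Read depth is unknown, since the files give no counts. The labels do not say that the libraries came from separate cultures, so the p-values measure the spread between these libraries.

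SNORA28 was examined first as a check of the labels. The LV-NC libraries held 0.92, 0 and 0.64 FPKM and the LV-SNORA28 libraries 15.01, 13.66 and 15.2 FPKM, and the groups did not overlap. Since it was the overexpressed gene, this value is a check and not a result. The endogenous SNORA28 gene sits in EIF5, a translation initiation factor gene. EIF5 had 16.88, 8.56 and 9.48 FPKM in LV-NC and 13.8, 17.86 and 14.59 FPKM in LV-SNORA28, so its groups overlapped.

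Beyond SNORA28, few members differed between the groups. Of the 85 members tested, 4 passed an adjusted p below 0.05 in limma (4.71%), 3 of them higher and 1 lower in LV-SNORA28. SNORA28 is 1 of the 3, and of the 84 other members 2 passed as higher and 1 as lower. Over all 12076 genes tested 1076 passed, 8.91%, with 6.81% higher and 2.10% lower. The members' share was below that of all genes. With quantile normalization 826 genes passed, 451 of them higher in LV-SNORA28 (54.6%, against 76.4% in the main fit), and 3 of them were members. Of the 85, 69 had a mean of at least 1 FPKM in both groups, 13 reached the overall filter through LV-SNORA28 alone and 3 through LV-NC alone. In the fit of all 25534 genes above 0 in at least 3 libraries, which holds all 232 members, SNORA28 was the only member that passed, against 2.30% of all genes there. By the threshold of the study's methods, an unadjusted p below 0.05 and a fold change above 1.5, 11 members passed (12.9%), against 3.79% of all genes tested. Without SNORA28 it was 10 of 84. The groups did not overlap in 15 of the 85 members (17.6%), 13 higher and 2 lower, against 35.1% of all genes tested. Leaving SNORA28 aside, they did not overlap in 14 of 84 (16.7%).

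SCARNA12, a scaRNA that combines C/D and H/ACA elements, rose in LV-SNORA28. It had 1.27, 0.7 and 2.29 FPKM in LV-NC and 3.46, 5.83 and 4.43 FPKM in LV-SNORA28, so that every LV-SNORA28 library was above every LV-NC library. On the log2(FPKM + 1) scale used throughout, limma gave a log2 fold change of 1.24 (SE 0.26; adjusted p = 0.0387). PHB2, its host gene, encodes a mitochondrial prohibitin and moved the other way, from 103 ± 9.42 FPKM to 75.8 ± 4.73 FPKM (SD, n = 3 each), a log2 fold change of -0.44 (limma; adjusted p = 0.0308). The call of SCARNA12 rested on the full set of libraries. It was kept without LV-NC 3 (adjusted p = 0.0372), and without any other single library the adjusted p was 0.066 to 0.117, with log2 fold changes of 1.01 to 1.38.

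The SNORA70 gene on chromosome 12 rose as well. It had 2.85, 2.54 and 2.88 FPKM in LV-NC and 4.16, 5.78 and 6.89 FPKM in LV-SNORA28, with no overlap. Limma gave a log2 fold change of 0.79 (SE 0.16; adjusted p = 0.0309). Its host, the noncoding gene ENSG00000258077, was below the level required for the test, at 0.95, 0.45 and 0.43 FPKM in LV-NC and 1.13, 1.01 and 1.03 FPKM in LV-SNORA28. The other SNORA70 members stayed low. The gene on chromosome X had 0.05 to 0.07 FPKM in all 6 libraries, and the gene on chromosome 3 was above 0 in 3 libraries, at 0.23 to 0.54 FPKM. The call on chromosome 12 was kept without LV-SNORA28 1 (adjusted p = 0.0213) and lost without any other library (adjusted p of 0.0693 to 0.104).

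SNORD4B, a C/D box snoRNA in the ribosomal protein gene RPL23A, fell. It had 2.99, 2.27 and 1.91 FPKM in LV-NC and 1.38, 0.95 and 1.01 FPKM in LV-SNORA28, and each LV-SNORA28 library lay below each LV-NC library. Limma gave a log2 fold change of -0.68 (SE 0.14; adjusted p = 0.0381). RPL23A itself had 478 ± 23.1 FPKM in LV-NC and 425 ± 18.7 FPKM in LV-SNORA28 (SD, n = 3 each), a log2 fold change of -0.17 (limma; adjusted p = 0.156). Leaving out any 1 library raised the adjusted p of SNORD4B to between 0.0536 and 0.122, with log2 fold changes of -0.78 to -0.55.

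**Figure D1:**
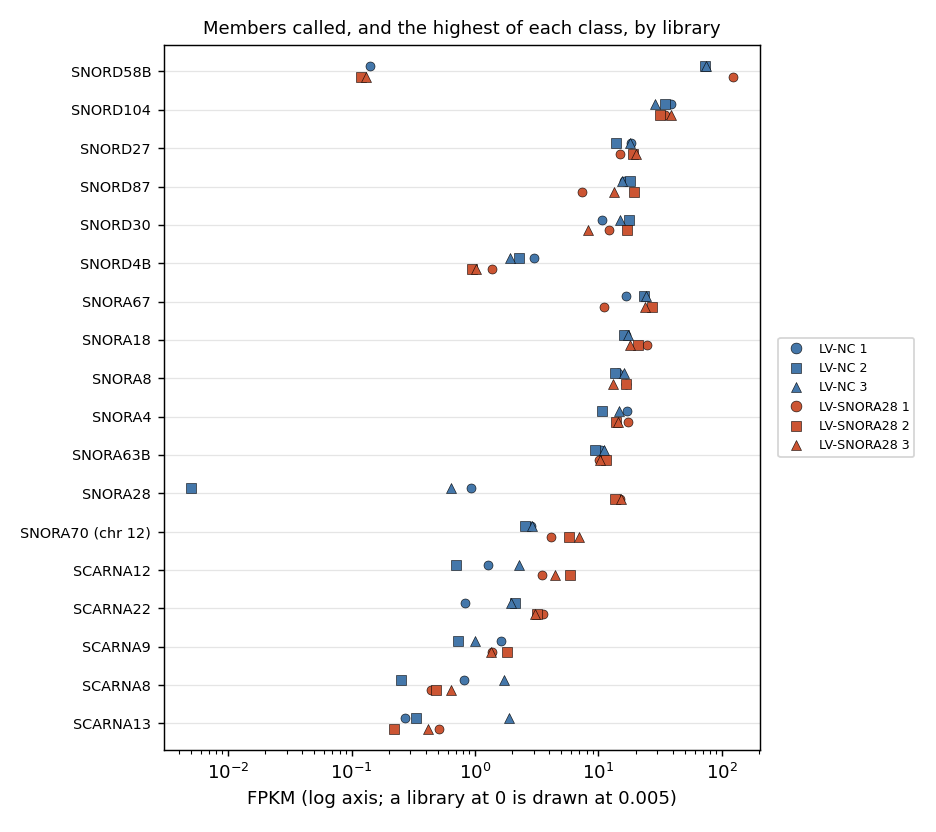
Each row is a member and each symbol the FPKM of 1 library (log axis; LV-NC in blue, LV-SNORA28 in orange, replicate by shape), for the members called and the 5 highest of each class. SNORA28, SCARNA12 and the SNORA70 gene on chromosome 12 lie higher in all 3 LV-SNORA28 libraries and SNORD4B lower, while SNORD58B spans 0.12 to 122.57 FPKM across libraries of both groups.

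Medians by class are given as a description, with no test between classes. Of the 35 SNORA members tested, 27 had a log2 fold change above 0 and 8 below, with a median of 0.24, or 0.22 without SNORA28. SNORA28, SNORA6, SNORA75, SNORA78, SNORA9B, SNORA13, SNORA22 and SNORA11F reached the filter of 1 FPKM through LV-SNORA28 alone, and all lay above 0. Only SNORA20 reached it through LV-NC alone, so the filter itself tilts this count and median towards LV-SNORA28. Of the 47 SNORD members, 27 were above 0 and 20 below, with a median of 0.05. All 3 SCARNA members tested were above 0, with a median of 0.74. The median of the 85 was 0.13 and that of all 12076 genes tested was 0.09, with 66.7% of all genes above 0. When every member above 0 in at least 3 libraries was counted the medians were 0.03 for SNORA, 0.005 for SNORD and 0.02 for SCARNA, against 0.03 for all genes. The added members average below 1 FPKM, and the pseudocount of 1 holds the log2 fold changes of such genes near 0, so these medians cannot be read as a comparison of classes.

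**Figure D2:**
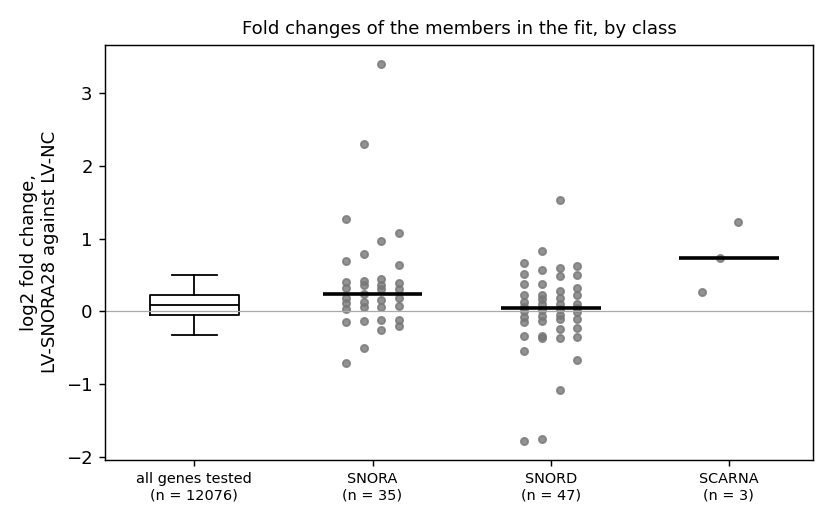
Points are log2 fold changes of the 85 members tested, LV-SNORA28 against LV-NC, by class, with a bar at each median, and the box at the left shows all 12076 genes tested (median, quartiles, whiskers at the 5th and 95th percentiles). The medians are 0.24 for SNORA, 0.05 for SNORD and 0.74 for SCARNA, against 0.09 for all genes, and single SNORD and SNORA members lie well outside the whiskers in both directions. Of the 85, 13 reached the filter through LV-SNORA28 alone and 3 through LV-NC alone, which tilts the points upward.

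Among the H/ACA members the highest levels belonged to SNORA67, SNORA18, SNORA8, SNORA4 and SNORA63B, with means of 10.5 to 21.1 FPKM. SNORA67, in the translation factor gene EIF4A1, had 16.85, 23.38 and 24.23 FPKM in LV-NC and 11.01, 27.28 and 23.87 FPKM in LV-SNORA28. SNORA18, in TAF1D, had 16.71, 15.96 and 17.19 FPKM in LV-NC and 24.57, 21 and 17.98 FPKM in LV-SNORA28. SNORA18 did not overlap between the groups but missed the threshold at a log2 fold change of 0.32 (limma; SE 0.11; adjusted p = 0.122). The other 4 overlapped between the groups, with log2 fold changes of -0.13 to 0.11. SNORA73B, one of the U17 snoRNAs that act in pre-ribosomal RNA cleavage rather than in modification, was chosen after its values were seen, since it lay just outside the threshold. It had 3.24, 5.79 and 6.03 FPKM in LV-NC and 8.33, 13.28 and 10.31 FPKM in LV-SNORA28, at a log2 fold change of 0.97 (limma; SE 0.24; adjusted p = 0.0543). Its near copy SNORA73A, identical at 93.2% of aligned positions and in the same host SNHG3, had 0.11 to 0.14 FPKM in all 6 libraries, and reads shared by these copies cannot be told apart. SNORA33, in the ribosomal protein gene RPS12, had an adjusted p of 0.0523, with 5.3, 6.8 and 6.27 FPKM in LV-NC and 8.49, 9.56 and 7.91 FPKM in LV-SNORA28.

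Among the C/D members the highest mean levels were those of SNORD58B, SNORD104, SNORD27, SNORD87 and SNORD30, at 13.4 to 45.1 FPKM. SNORD104, in SNHG25, was steady, with 38.76, 34.26 and 28.74 FPKM in LV-NC and 34.85, 31.39 and 38.61 FPKM in LV-SNORA28. It lay above its host gene, which had 2.67 ± 0.09 FPKM in LV-NC and 2.61 ± 0.35 FPKM in LV-SNORA28 (SD, n = 3 each). SNORD27, which guides methylation of 18S ribosomal RNA, had 18.5, 13.94 and 18.13 FPKM in LV-NC and 15.01, 19.17 and 20.26 FPKM in LV-SNORA28. The groups overlapped for all 5, and their log2 fold changes ran from -1.78 to 0.10 with adjusted p of 0.468 to 0.842 in limma. U3 and U8, C/D RNAs that act in cleavage of the ribosomal RNA precursor, were low in these libraries, and so was U13 (SNORD13), at most 0.33 FPKM. The 5 U3 members summed to 0.83, 0.8 and 1.42 FPKM in LV-NC and 1.73, 1.51 and 1.78 FPKM in LV-SNORA28, and U8 (SNORD118) had 0.08 to 0.12 FPKM in all 6 libraries.

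Of the scaRNAs, 3 were high enough to be tested. SCARNA22, in the histone methyltransferase gene NSD2, had 0.83, 2.1 and 1.95 FPKM in LV-NC and 3.54, 3.2 and 3.06 FPKM in LV-SNORA28. Its groups did not overlap, at a log2 fold change of 0.74 (limma; SE 0.20; adjusted p = 0.0735), while NSD2 had a log2 fold change of -0.07. SCARNA22 passed without LV-NC 1 (log2 fold change 0.50, adjusted p = 0.0436). SCARNA9, in CEP295, had 1.61, 0.73 and 1 FPKM in LV-NC and 1.38, 1.83 and 1.35 FPKM in LV-SNORA28, which overlapped. SCARNA8 and SCARNA13, next in level, were below 1 FPKM on average and had log2 fold changes of -0.27 and -0.30, with adjusted p of 0.667 and 0.69 in the fit of genes above 0 in at least 3 libraries.

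Summed over members, every LV-SNORA28 library lay above every LV-NC library in the H/ACA class, also when SNORA28 itself was left out. The 100 other SNORA members summed to 170, 165 and 185 FPKM in LV-NC and to 205, 227 and 196 FPKM in LV-SNORA28, with means of 173 ± 10.4 and 209 ± 15.7 (SD, n = 3 each). The 13 SCARNA members summed to 7.48, 5.83 and 10.29 FPKM in LV-NC and 11.04, 13.58 and 10.79 FPKM in LV-SNORA28. That difference lay in SCARNA12 and SCARNA22, since the other 11 summed to 5.38, 3.03 and 6.05 FPKM in LV-NC and 4.04, 4.55 and 3.3 FPKM in LV-SNORA28, which overlapped. Neither class overlapped between the groups (exact two-sided permutation p = 0.1, the smallest possible with 3 libraries against 3). The 118 SNORD members summed to 273 ± 44.3 FPKM in LV-NC and 283 ± 36.6 FPKM in LV-SNORA28, which overlapped (exact permutation p = 0.9). Without SNORD58B the spread of the LV-NC sums was smaller and that of the LV-SNORA28 sums was not, at 224 ± 12.2 and 242 ± 36.7 FPKM (SD, n = 3 each). Members with a 10-fold spread within a group weighed on both sums. Here they were taken from all members, also those below the level required for the test. They are thus a larger set than the 18 tested members described below. Without them the 84 other SNORD members summed to 183 ± 4.26 and 198 ± 7.97 FPKM (LV-NC and LV-SNORA28, SD, n = 3 each). The 60 other SNORA members summed to 156 ± 9.16 and 177 ± 11.4 FPKM (likewise). Neither of these trimmed sums overlapped between the groups, and no test was made of them because the members were left out after their values were seen. As a share of the FPKM sum outside the mitochondrial genome, SNORA members including SNORA28 took 0.0897% ± 0.0056 in LV-NC and 0.113% ± 0.0066 in LV-SNORA28 (SD, n = 3 each), and these did not overlap. That share was not computed without SNORA28, so it does not bear on the sum of the other members.

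**Figure D3:**
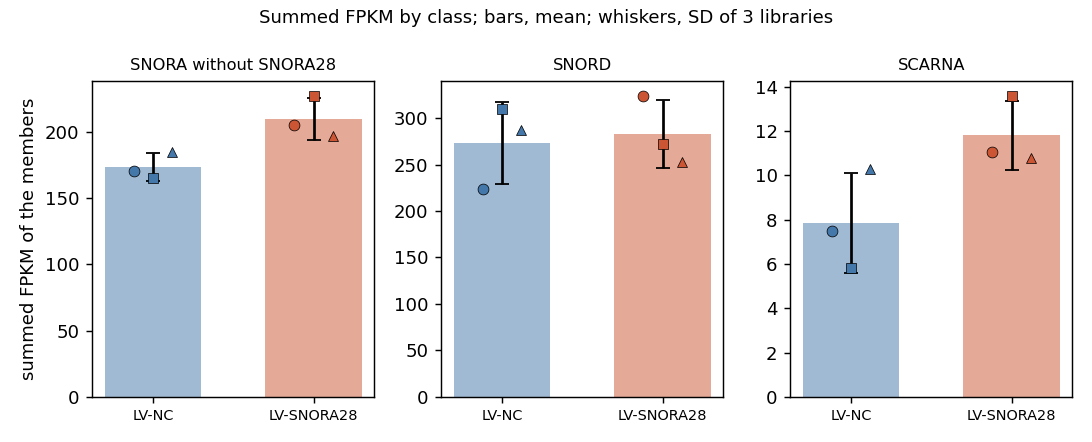
Bars are the mean summed FPKM of the members of each class in the 3 LV-NC and 3 LV-SNORA28 libraries, whiskers are the SD and symbols the single libraries. The SNORA sum without SNORA28 (173 against 209 FPKM) and the SCARNA sum do not overlap between the groups, and the SNORD sum does.

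Other RNAs without a poly(A) tail were read beside the members, since the amount of such RNA carried through oligo(dT) selection can differ between libraries. Of 22 listed genes (small nuclear, Y, vault, 7SL, 7SK and similar RNAs), 6 were at 0 in all libraries and 3 had a mean of at least 1 FPKM. They summed to 39.6, 23.5 and 26 FPKM in LV-NC and 39.7, 15.9 and 24.6 FPKM in LV-SNORA28 (exact permutation p = 0.8), most of it from the 7SL genes RN7SL1 and RN7SL2. The 80 replication-dependent histone genes, whose mRNAs end in a stem-loop in place of a tail, summed to 69.9 ± 4.54 FPKM in LV-NC and 65.7 ± 3.31 FPKM in LV-SNORA28 (SD, n = 3 each), which overlapped (exact permutation p = 0.3). Without RN7SL1 and RN7SL2 the other 20 listed genes summed to 4.61 ± 0.82 FPKM in LV-NC and 5 ± 0.7 FPKM in LV-SNORA28 (SD, n = 3 each), which overlapped. The part that carry-through of RNA without a tail had in the members' values was not tested.

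A second pattern cut across the groups. In 18 of the 85 members tested (21.2%), the highest library of a group was at least 10 times the lowest, taking 0.01 FPKM as the floor, against 1.03% of all 12076 genes tested. SNORA28 is 1 of the 18, through its low values in LV-NC. Other genes of at most 300 nt in the test showed it in 19 of 179 cases (10.6%). The 10-fold limit was chosen after the data were seen. With limits of 5-fold and 20-fold the counts were 22 and 17 members, against 1.96% and 0.754% of all genes tested. Most of these members had a low and a high level with little between. In 15 of the 18, the lowest value above 0.25 FPKM was at least 10 times the highest value at or below it. That 0.25 FPKM limit was also chosen after the data were seen. SNORA28 is 1 of the 15 through its 0 FPKM in LV-NC 2, and its 0.64 and 0.92 FPKM lie between that and its LV-SNORA28 values.

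SNORD58B was the extreme case. It had 0.14, 72.98 and 74.67 FPKM in LV-NC and 122.57, 0.12 and 0.13 FPKM in LV-SNORA28, so 3 libraries were near 0.13 FPKM and 3 were above 70, in both groups. Its host RPL17 had 117.93 to 133.86 FPKM in all 6 libraries, and its neighbour SNORD58A, whose sequence is printed beside it above, had 3.39, 6.31 and 4.87 FPKM in LV-NC and 6.48, 9.71 and 7.62 FPKM in LV-SNORA28. The third member of the host, SNORD58C, had a mean of 0.14 FPKM. SNORD26, which guides methylation of 28S ribosomal RNA, had 0.12 to 0.14 FPKM in 5 libraries and 26.87 FPKM in LV-SNORA28 2, while SNHG1 had 11.47 to 16.16 FPKM. SNORA6, in the ribosomal protein gene RPSA, had 0.01 FPKM in 5 libraries and 8.46 FPKM in LV-SNORA28 2, with RPSA at 400.31 to 435.53 FPKM. SNORD2, in EIF4A2, was at 9.23 FPKM in LV-NC 3 and at 0.09 to 0.13 FPKM in the other 5 libraries. SNORD12, in ZFAS1, was high in LV-NC 2 (3.99 FPKM) and LV-SNORA28 2 (3.91 FPKM) and at 0.07 to 0.1 FPKM elsewhere.

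SNORD68, in RPL13, had 4.64, 11.24 and 0.01 FPKM in LV-NC and 0.01, 9.71 and 4.82 FPKM in LV-SNORA28. SNORD10, in EIF4A1, had 0.02 FPKM in LV-NC 1 and LV-SNORA28 1 and 4.43 to 6.05 FPKM in the other 4 libraries. The high and low libraries were thus not the same from member to member, and in 6 of the 18 members both groups held libraries on each side of 0.25 FPKM. Every library held low values, between 5 and 9 of the 18 members at or below 0.25 FPKM.

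The host genes did not show the pattern. Of the 15 hosts of these members in the files, 14 had less than a 2-fold range over the 6 libraries, and the widest was EIF5 at 2.09-fold. The pattern was more frequent among members that touch a host exon. Of the 48 members tested that touch an exon of an annotated host transcript, 14 showed it (29.2%), against 2 of the 34 that lie in introns of every host transcript (5.88%), SNORA28 being 1 of the 2. This split is a description of nested genes that share hosts. What part the assignment of fragments between a snoRNA and an overlapping host transcript had in it was not tested.

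**Figure D4:**
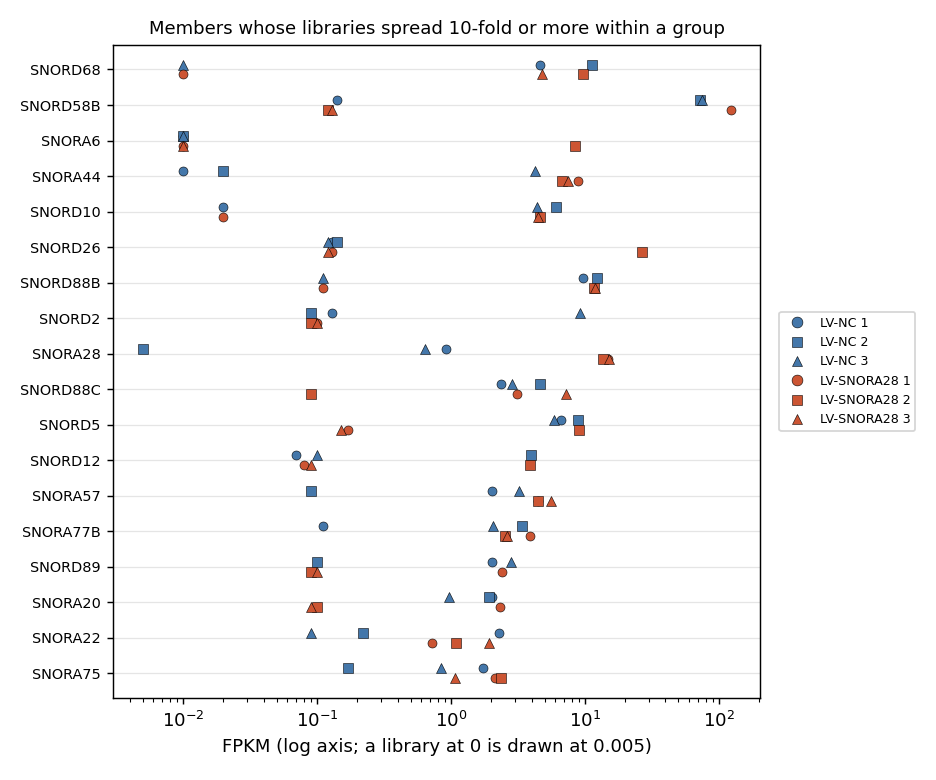
Rows are the 18 members whose libraries spread at least 10-fold within a group, and symbols are FPKM by library (log axis; LV-NC in blue, LV-SNORA28 in orange). Most rows split into a low and a high cluster, and libraries of both groups sit in each cluster for members such as SNORD58B, SNORD68, SNORD10 and SNORD12.

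Of the 5 largest differences in each direction, those other than SNORA28, SCARNA12 and SNORD4B came from these members and did not pass the test with all libraries. SNORA44, in SNHG12, had 0.01, 0.02 and 4.24 FPKM in LV-NC and 8.9, 6.75 and 7.55 FPKM in LV-SNORA28, at a log2 fold change of 2.31 (limma; SE 0.62; adjusted p = 0.0689). Without LV-NC 3, the one LV-NC library with a high value, SNORA44 passed (adjusted p = 0.00751). SNHG12 had 3.78 ± 0.04 and 4.07 ± 0.24 FPKM (SD, n = 3 each). SNORA57, in CSKMT, had 2.03, 0.09 and 3.23 FPKM in LV-NC and 4.45, 4.49 and 5.62 FPKM in LV-SNORA28, with a log2 fold change of 1.27 (adjusted p = 0.137), or 0.70 without LV-NC 2. The log2 fold change of SNORD26 was 1.54 (SE 1.21) and rested on LV-SNORA28 2, since without that library it was -0.006. In the other direction the log2 fold changes were -1.78 for SNORD58B (SE 2.36; adjusted p = 0.668) and -1.76 for SNORD5 (SE 0.82; adjusted p = 0.223). With a library left out SNORD58B ran from -4.04 (without LV-SNORA28 1) to -0.65 (without LV-SNORA28 2), and it was -3.8 without LV-NC 1. SNORD5, in TAF1D, had 6.64, 8.95 and 5.87 FPKM in LV-NC and 0.17, 9.1 and 0.15 FPKM in LV-SNORA28, and it passed without LV-SNORA28 2 (log2 fold change -2.8, adjusted p = 0.00955). SNORD2 followed at -1.09 (SE 0.84) and rested on LV-NC 3, since without that library it was -0.017. SNORA20 was at -0.71 (SE 0.45) and ran from -0.44 without LV-SNORA28 3 to -1.25 without LV-SNORA28 1, where it passed (adjusted p = 0.0464). SNORA20, in the chaperonin gene TCP1, had 2.03, 1.93 and 0.97 FPKM in LV-NC and 2.31, 0.1 and 0.09 FPKM in LV-SNORA28. For SNORA44, SNORD5 and SNORA20, the library left out where they passed was the one that ran against the difference. Its removal takes away most of the spread in its group, so these passes are no support for a difference.

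Members and host genes were then set side by side, for the 78 members tested whose host was also tested, in 53 hosts. The signs of the log2 fold change were the same in 42 of 78 pairs. Across these pairs, which share hosts and are not independent, Pearson's r was 0.07 and Spearman's rho 0.005, and levels of members and hosts had a rho of 0.07. For the 22 members in ribosomal protein genes the median was 0.16 and that of their hosts -0.17. Of these members 68.2% were above 0, near the 66.7% of all genes tested. In 13 pairs the member was above 0 and the host below. None went the other way, but of these hosts only RPL12 and RPS13 were above 0. For the 38 in other protein-coding genes the medians were 0.15 and 0.15, and for the 18 in noncoding genes 0.10 and 0.08. Of the 53 hosts, 5 passed the test (9.43%, against 8.91% of all genes tested), with TCP1 and SNHG1 higher and PHB2, RPL13A and SNHG32 lower in LV-SNORA28. None of the members of SNHG1, RPL13A, SNHG32 or TCP1 passed.

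**Figure D5:**
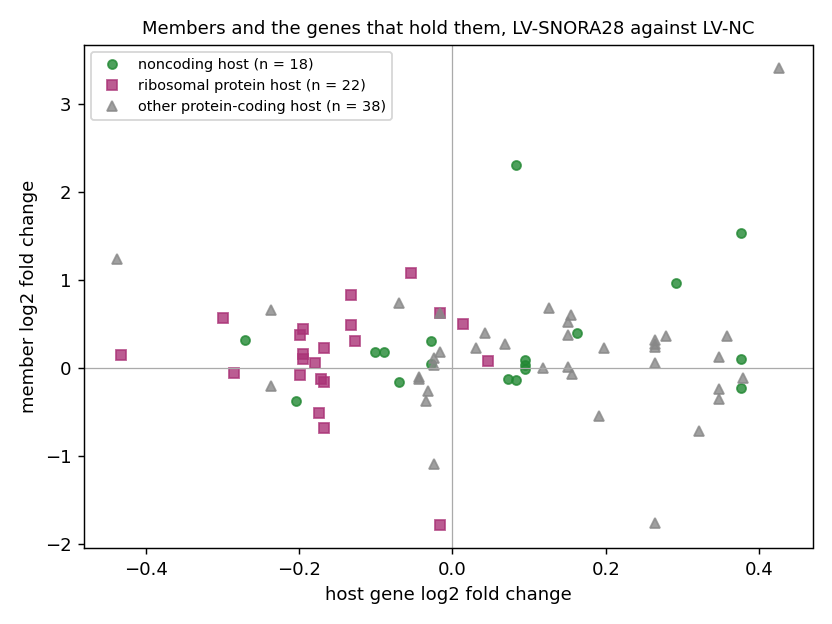
Each point is 1 of 78 members, its host gene's log2 fold change on the x axis and its own on the y axis, by type of host. Points of ribosomal protein hosts lie mostly left of 0 on the x axis and above 0 on the y axis (medians -0.17 and 0.16), and over all 78 points rho is 0.005. The share of these members above 0 (68.2%) is near that of all genes tested (66.7%).

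Members of 1 host differed widely in level. There were 20 host genes in the files with at least 3 members, 77 members in all. TAF1D, which encodes a subunit of the RNA polymerase I factor SL1, held 8, with means from 0.07 FPKM (SNORA1) to 18.9 FPKM (SNORA18). Their log2 fold changes ran from -1.76 (SNORD5) to 0.32 (SNORA18), against 0.26 for TAF1D (adjusted p = 0.0626 in limma). SNHG1 held 7, with means from 0.015 FPKM for a SNORD22 gene to 17.5 FPKM for SNORD27 and log2 fold changes from -0.22 (SNORD30) to 1.54 (SNORD26). SNHG1 itself rose from 11.5 ± 0.08 to 15.3 ± 1.04 FPKM (SD, n = 3 each), a log2 fold change of 0.38 (limma; adjusted p = 0.0243). EIF4A2 held 5, from 0.02 FPKM (SNORA81) to 14.7 FPKM (SNORA4), with log2 fold changes of -1.09 (SNORD2) to 0.11 (SNORA4). SNHG17 held 5 SNORA71 genes, from 0.06 to 1.1 FPKM, with log2 fold changes of -0.15 to 0.06. The highest of a host's members was between 1.4 times (RABGGTB) and 2540 times (EIF4A1) the lowest. In RPL3 and RPS12 all 3 members had log2 fold changes above 0, and both host genes were lower on average in LV-SNORA28.

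The proteins that make snoRNPs, the particles in which these RNAs act, were nearly all measured. Of 31 listed genes, 30 were tested, and NOPCHAP1 was below the level required. NAF1, an assembly factor of H/ACA particles, was the 1 gene of the 30 that passed, higher in LV-SNORA28. Of all genes tested 8.91% passed in either direction and 6.81% passed as higher, so the list held no more calls than its size would give. NAF1 had 2.54, 2.24 and 2.63 FPKM in LV-NC and 3.72, 3.93 and 4.2 FPKM in LV-SNORA28, at a log2 fold change of 0.51 (limma; SE 0.08; adjusted p = 0.0174). The call was lost without LV-SNORA28 2 (adjusted p = 0.0693) and without LV-SNORA28 3 (adjusted p = 0.0705). The H/ACA core genes DKC1, the pseudouridine synthase, and GAR1, NHP2 and NOP10 had log2 fold changes of 0.13, 0.22, 0.09 and 0.05, and none of these passed. The C/D core genes FBL, the methyltransferase, and NOP56, NOP58 and SNU13 had log2 fold changes of 0.10, -0.03, -0.03 and -0.08, and none of these passed. The median of the 30 was 0.09, the same to 2 decimals as that of all genes tested.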

How the data were processed

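Poly(A)-selected RNA of 6 HCT116 libraries, 3 LV-NC and 3 LV-SNORA28, was sequenced as stranded (dUTP) paired ends. For each library the authors deposited FPKM values by Ensembl gene, rounded to 2 decimals. The submitters' processing notes name cutadapt 1.9, HISAT2 2.2.1, StringTie 2.1.6, DESeq2, edgeR and the build hg38, with no roles given. The files held FPKM and no counts, so depth is unknown and no counting interval could be given. GENCODE release 44 (GRCh38) supplied symbols, hosts and sequences and matched 60401 of 60612 genes. A host was a protein-coding or noncoding gene on the same strand that spans the member.

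The 12076 genes averaging 1 FPKM or more were fitted on log2(FPKM + 1) with limma 3.58.1 (lmFit, eBayes with a mean-variance trend) in R 4.3.3, LV-SNORA28 against LV-NC, two-sided, with Benjamini-Hochberg adjustment over all genes tested. Fold changes on this scale understate the change of low genes. Members below the filter were read from the fit of the 25534 genes above 0 in at least 3 files. Summed FPKM was compared by exact two-sided permutation tests. Identities came from global alignments in Biopython. The fit was tested on simulated data.

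Members and lists were chosen with earlier results of these data known. Members named were SNORA28, every member called, the 5 highest in each class, the 5 largest rises and falls in the test, members of hosts with at least 3 members by range, and the hosts of all these. Other members given with values were chosen after their values were seen. Alternatives were quantile normalization, scaling to the FPKM sum outside the mitochondrial genome, a pseudocount of 0.1, other filters, no trend, the replicate number as a block, and each library left out in turn. Replicate numbers are only names here, since deviations of same-numbered libraries correlated at -0.04, 0.09 and 0.01.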

Additional observations from a re-analysis of the deposited data

How the results depend on the processing

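SNORA28 passed the test under all 14 alternatives. The other calls depended on the setting: SCARNA12 passed under 4 of 13, the SNORA70 gene under 5 of 13 and SNORD4B under 5 of 13 alternatives, all in the same direction, and NAF1 under 10 of 13. The count of members called was 1 in the fit of genes above 0 in at least 3 files and 1 with no filter, and it ran from 1 to 3 with a library left out, being 1 without LV-NC 2 or LV-SNORA28 3. Calls were also gained, with SNORA73B and SNORA33 passing at a mean of at least 5 FPKM and SNORD19, SCARNA22, SNORA44, SNORA20 and SNORD5 each passing with 1 library left out. For SNORA44, SNORA20 and SNORD5 that library was the one that ran against the difference, so these gains are no support for it. With the replicate block the count of members called was 4, of which SNORA28 and SNORD4B were shared with the main test and SNORA73B and SNORD58A were not. The numbers share only a name. In this balanced design the block cannot change a log2 fold change, so the median is 0.13 by construction. The median log2 fold change of the members was 0.039 with quantile normalization (all genes -0.001), 0.18 with a pseudocount of 0.1, 0.013 in the fit of genes above 0 in at least 3 files, 0.013 with no filter, 0.083 at a mean of at least 5 FPKM and 0.14 to 0.25 with a library left out. By class, the median for SNORA was 0.028 in the fit of genes above 0 in at least 3 files and 0.028 with no filter, for SNORD 0.019 to 0.19 with a library left out, and for SCARNA 1.06 with a pseudocount of 0.1, 0.020 in the fit of genes above 0 in at least 3 files and 0.020 with no filter. The log2 ratio of the summed SNORA FPKM was 0.37, and 0.27 without SNORA28. By limma the snoRNP list had 0 calls with no filter (5 of 31 at an unadjusted p below 0.05) and 0 at a mean of at least 5 FPKM (3 of 23), where NAF1 is not tested, and 0 to 1 with a library left out, 0 being without LV-SNORA28 2 (2 of 30), and without LV-SNORA28 3 the 1 call was SHQ1 and not NAF1. The sign of the log2 fold change turned with quantile normalization for SNORA8 (-0.017), SNORA63B (-0.065) and SNORD104 (-0.020). With a library left out the log2 fold change ran from -0.36 to 0.25 for SNORA67, -0.061 to 0.24 for SNORA4, -0.031 to 0.084 for SNORA63B, -0.064 to 0.15 for SNORD104, -0.023 to 0.22 for SNORD27, -0.46 to 0.026 for SNORD30 and -0.0064 to 2.31 for SNORD26. The cause of these changes was not tested. In all, 259 of 300 alternative values of single members kept their direction and side of the threshold, and 12 turned. The other filters, no trend and the block leave a log2 fold change unchanged, so direction could not turn there. Most of these members did not pass in the main fit, so the total says little about the calls, whose counts by setting are given above. Without counts, only the spread between libraries says how precise a low value is.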
